A study of Sus scrofa with 4 samples.

Results

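The cyclins, kinases and inhibitors that set the passage through G1 were read in epidermal cells of the pig sorted by LGR5. The set held 10 genes of the 29837 named genes in the counts. They were the D cyclins CCND1, CCND2 and CCND3, the kinases CDK4 and CDK6, the inhibitors CDKN1A, CDKN1B, CDKN1C and CDKN2B, and RBL2 of the retinoblastoma family. They were picked by gene name for their place in this pathway, to look for signs of quiescence. All 10 were present in the counts and all 10 passed the filter on low counts, which left 15980 genes for the test.

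The skin came from 2 juvenile pigs, 88R and 95R, that carried H2B-GFP, a fusion of histone H2B and green fluorescent protein, in exon 1 of 1 LGR5 allele. That allele makes the reporter in place of LGR5, so both sorted populations share a single intact LGR5 allele. The line was founded from clonal edited fibroblasts by nuclear transfer, and whether these 2 pigs were founders or offspring is not given in the sources used here. Epidermis and hair were separated from dermis with Dispase II and trypsin, dead cells were marked with propidium iodide, and LGR5-H2BGFP high (LGR5-high) and LGR5-H2BGFP negative (LGR5-negative) cells were sorted. Each pig gave 1 library of each population, titled GFP-hi and GFP-neg. H2B-GFP thins out as cells divide, so the GFP gate depends on recent division as well as on the LGR5 promoter.

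The 4 libraries held between 30696803 and 32463362 counts on named genes, at which depth 3 counts correspond to 0.0873 to 0.105 CPM, the counts of a gene scaled to a library of fixed size. LGR5 had 4551 and 6224 counts in LGR5-high and 36 and 109 in LGR5-negative, in pigs 88R and 95R, in the direction of the sort. KRT5, a keratin of basal keratinocytes, averaged 24600 CPM among LGR5-high cells and 27800 CPM among LGR5-negative ones. The epidermal label thus had its keratin in both populations. Of 9 suprabasal epidermis markers tested, 7 were lower and 0 higher in LGR5-high. Their summed level was 5650 to 6170 CPM in LGR5-high, against 56800 to 66100 CPM in LGR5-negative. In bulk RNA, fewer cells of a type and less RNA per cell cannot be told apart.

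D cyclins bind CDK4 or CDK6 and, once active, these kinases phosphorylate the retinoblastoma family (RB1, RBL1 and RBL2), which releases E2F transcription factors and lets cells enter S phase. INK4 inhibitors such as CDKN2B (p15) bind the kinases CDK4 and CDK6 themselves, while the CIP/KIP inhibitors CDKN1A (p21), CDKN1B (p27) and CDKN1C (p57) act on assembled complexes, above all those of CDK2. RBL2 (p130) is the family member best known from resting cells, where it holds E2F targets silent within the DREAM complex. In skin, CDKN1A is known for its rise as keratinocytes leave the basal layer, and hair follicle stem cells are known for long resting periods between hair cycles.

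Of the 10 genes, 3 were higher in LGR5-high, CDKN1C, CCND3 and CDK4, and 2 were lower, CDKN1A and CCND1, by edgeR's quasi-likelihood test with an adjusted p under 0.05. The 3 called higher stood beside 22.7% of all tested genes called higher, and the 2 called lower beside 22% called lower. In all, 50% of the genes of the set and 44.7% of the 15980 genes were called, so the share was near the background. The 2 populations did not overlap in CPM for 7 of the 10 genes, beside 76.6% of all tested genes. The median log2 fold change was -0.10 over the 10 genes and 0.02 over all tested genes. When the pig was fitted as a block, 3 were higher and 4 lower, with CDK6 and CDKN1B added, beside 28.5% and 27.2% of all genes, and 55.7% in both directions. Estimates of paralogs stood on both sides of 0 among the D cyclins, among the kinases and among the CIP/KIP inhibitors. Among the kinases, CDK6 was not called without the block. Over all tested genes the calls were split between both directions as well. With library size only in place of trimmed mean of M-values (TMM) scaling, the calls were again 3 higher and 2 lower, while over all genes the calls moved from 3632 higher and 3508 lower to 5473 and 2326.

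**Figure D1:**
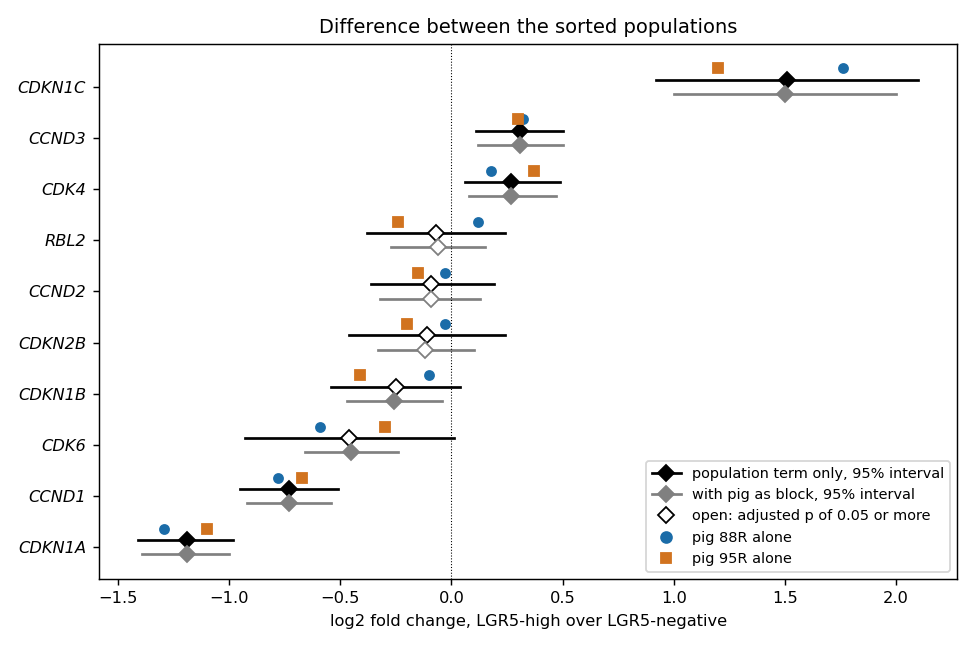
The log2 fold change of each gene, LGR5-high over LGR5-negative, on the horizontal axis, with genes ordered by value. Black diamonds with 95% intervals are from the test with the population only, grey ones from the test with the pig as a block, open diamonds had an adjusted p of 0.05 or more, and circles and squares show each pig alone. CDKN1A at -1.19 and CDKN1C at 1.51 mark the ends, and RBL2, CCND2 and CDKN2B lie across 0 in both tests.

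CCND1, the D cyclin raised by mitogens and WNT signals in many tissues, stood at 156 CPM in pig 88R and 150 CPM in pig 95R among LGR5-high cells, and at 268 and 238 CPM among LGR5-negative cells. Both LGR5-negative libraries were above both LGR5-high libraries. Its mean was 153 ± 4.01 CPM (SD, n = 2) in LGR5-high, against 253 ± 20.7 CPM (SD, n = 2) in LGR5-negative, a level 1.66-fold lower in LGR5-high. On the log2 scale the change was -0.73 (SE 0.0896, edgeR adjusted p = 0.0018), and the pigs alone gave -0.78 and -0.67.

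CCND3 moved the other way, by less. This D cyclin is known in many tissues from cells that leave the cycle and differentiate as well as from dividing ones. It had 89.3 and 84.9 CPM in the LGR5-high libraries and 71.7 and 69.1 CPM in the LGR5-negative libraries, in the same order of pigs, and the populations did not overlap. Its log2 fold change of 0.31 (SE 0.0794, edgeR adjusted p = 0.0246) is a 1.24-fold higher level, with 0.32 and 0.30 in the 2 pigs. The call rested on all 4 libraries: leaving out any single one gave an adjusted p between 0.0697 and 0.13 in the same edgeR test.

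CCND2, the third D cyclin, had 40.7 and 35.1 CPM in LGR5-high, against 41.5 and 39.1 CPM in LGR5-negative. The populations overlapped. Its log2 fold change was -0.09 with a 95% interval from -0.36 to 0.19 (adjusted p = 0.554, edgeR), which held neither the value of CCND1 nor that of CCND3. With library size only it was 0.14, so no direction is given. The 3 D cyclins summed to 286 and 270 CPM in LGR5-high, against 381 and 347 CPM in LGR5-negative. CCND1 gave 54.5% and 55.5% of the D cyclin counts in LGR5-high and 70.3% and 68.8% in LGR5-negative. CCND3 gave 31.3% and 31.4% against 18.8% and 19.9%. These are shares of counts, not corrected for transcript length, and can be compared between libraries only.

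CDK4, a catalytic partner of the D cyclins, had 76.5 and 84.1 CPM among the LGR5-high libraries (pig 88R first) and 67.5 and 65.2 CPM among the LGR5-negative ones. Both LGR5-high values were above both LGR5-negative values. Its log2 fold change of 0.27 (SE 0.0872, edgeR adjusted p = 0.0474) is a 1.21-fold higher level. This call was close to the threshold. It was lost without any single library, with adjusted p-values between 0.0726 and 0.213 in edgeR, and with DESeq2 (0.0659) and limma-voom (0.052).

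CDK6, the other D cyclin partner, had 62.8 and 53 CPM in LGR5-high, against 94.6 and 65.2 CPM in LGR5-negative. Pig 88R stood above pig 95R in both populations, and all LGR5-negative values lay above all LGR5-high values. CDK6 had a log2 fold change of -0.46 with a 95% interval from -0.93 to 0.01, and it did not pass the test (adjusted p = 0.0974, edgeR). With the pig as a block the estimate was -0.45 with an interval from -0.66 to -0.24, and the gene was called lower (adjusted p = 0.00102, edgeR with the replicate block). With library size only, the block gave -0.22 and no call (adjusted p = 0.0891, edgeR with the replicate block). The value also turned on single libraries. It was called without the LGR5-negative library of pig 95R, at -0.72 (adjusted p = 0.00938, edgeR), and not without that of pig 88R, at -0.18 (0.383), nor without the LGR5-high library of pig 88R, at -0.60 (0.127), or that of pig 95R, at -0.34 (0.348).

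**Figure D2:**
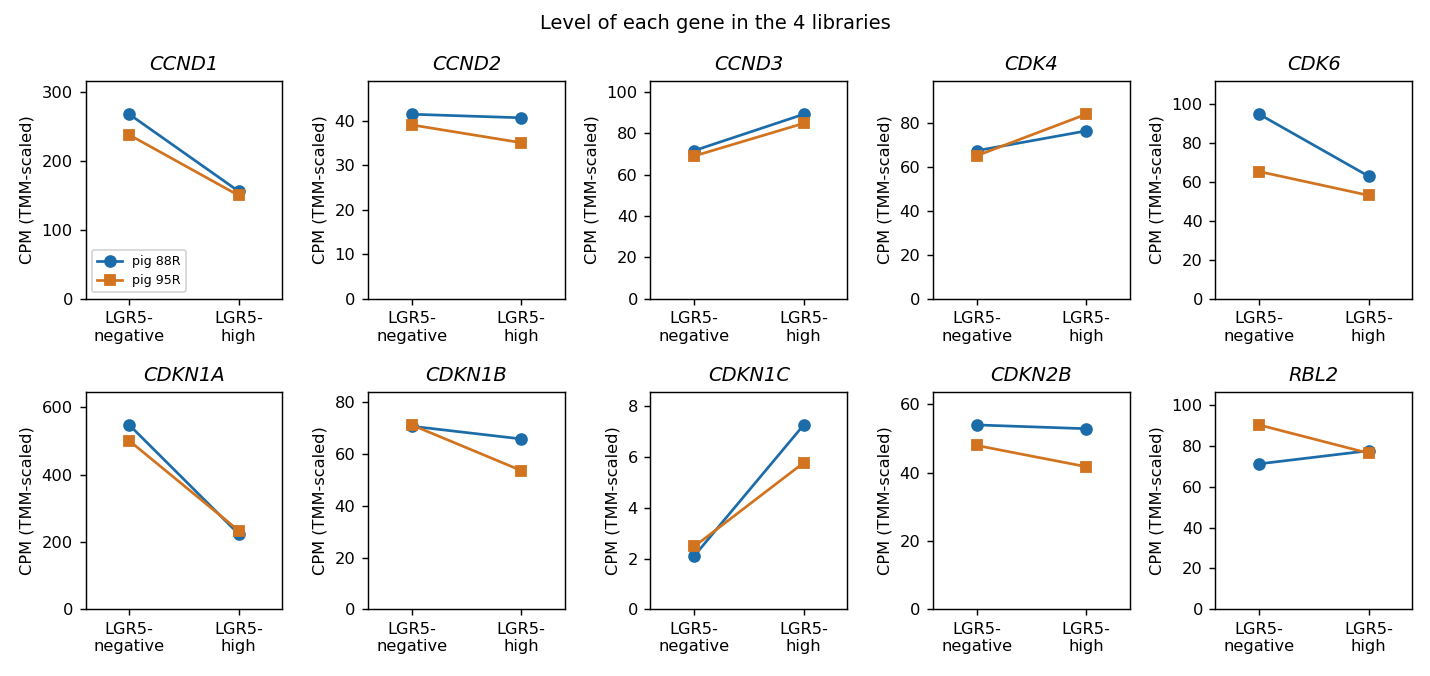
Level of each of the 10 genes in CPM after TMM scaling, on vertical axes that start at 0, in LGR5-negative on the left and LGR5-high on the right of each panel. Each point is 1 library, and lines join the libraries of 1 pig. CDKN1A falls from 548 and 501 CPM to 224 and 234 CPM, CDKN1C rises from 2.11 and 2.48 CPM to 7.27 and 5.78 CPM, and the lines of RBL2 cross.

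The CIP/KIP inhibitors spanned the whole range of log2 fold changes of the set. CDKN1A had 224 and 234 CPM in LGR5-high, against 548 and 501 CPM in LGR5-negative, in pigs 88R and 95R. The gap between populations was wide beside that between pigs, with 229 ± 6.49 CPM (SD, n = 2) in LGR5-high, against 524 ± 33.2 CPM (SD, n = 2) in LGR5-negative. It was 2.29-fold lower in LGR5-high, at -1.19 on the log2 scale (SE 0.0862, edgeR adjusted p = 0.000294). Each pig alone gave -1.29 and -1.10. The suprabasal keratin genes KRT1 and KRT10 were lower too (log2 fold changes of -3.56 and -3.44, edgeR adjusted p = 6.71e-05 and 6.62e-05), and of the 9 suprabasal markers only LOR (0.20) and IVL (-0.16) did not pass the test. Their part in the difference of CDKN1A was not tested.

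CDKN1C, an imprinted gene and the inhibitor known for rest in several adult stem cell types, had the largest log2 fold change of the set. It had 250 and 191 counts in LGR5-high and 60 and 75 counts in LGR5-negative, which are 7.27 and 5.78 CPM against 2.11 and 2.48 CPM. The populations did not overlap. Its log2 fold change of 1.51 (SE 0.238, 95% interval 0.92 to 2.10, edgeR adjusted p = 0.00452) is a 2.84-fold higher level, and the pigs alone gave 1.76 and 1.20. It was called without each library in turn, with adjusted p-values between 0.00725 and 0.0351 in edgeR. CDKN1C held the fewest counts of the 10 genes, so its estimate carries the most counting error. Endothelial cells are a known site of CDKN1C, and 5 of 6 endothelial markers tested were lower in LGR5-high and 0 higher, with summed levels of 6.28 to 7.6 CPM in LGR5-high, against 21.4 to 21.5 CPM in LGR5-negative. Of 6 smooth muscle and Schwann markers tested, 4 were higher and 1 lower, with summed levels of 21.4 to 28.2 CPM in LGR5-high, against 6.91 to 13.3 CPM in LGR5-negative, and DES had between 0 and 2 counts in every library. Their part in the difference of CDKN1C was not tested.

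CDKN1B had 65.8 and 53.6 CPM in LGR5-high, against 70.7 and 71.2 CPM in LGR5-negative. Both LGR5-high values were the lower ones, and the step was small in pig 88R, where the log2 fold change was -0.10, and larger in pig 95R, where it was -0.41. Over both, the log2 fold change of -0.25 (95% interval -0.54 to 0.04) did not pass the test (adjusted p = 0.136, edgeR). It passed with the pig as a block, where it was -0.26 (95% interval -0.47 to -0.04, adjusted p = 0.0405, edgeR with the replicate block). It passed as well without the LGR5-high library of pig 88R (log2 fold change -0.41, adjusted p = 0.0455, edgeR). It did not pass without any other single library, with -0.10 (adjusted p = 0.51, edgeR) without the LGR5-high library of pig 95R. The block gave no call for CDKN1B in DESeq2 (adjusted p = 0.164) or with library size only (0.819, edgeR with the replicate block). Under the 13 alternatives that kept all libraries, it lay between -0.26 and -0.02 on the log2 scale.

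CDKN2B, the INK4 inhibitor known as a target of TGF-beta signals in keratinocytes, had 52.8 and 41.7 CPM in LGR5-high, against 53.9 and 47.9 CPM in LGR5-negative. The populations overlapped, and pig 88R was the higher pig in each. Its log2 fold change was -0.11 with a 95% interval from -0.46 to 0.24 (adjusted p = 0.561, edgeR). With library size only it was 0.12, so no direction is given.

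RBL2 had 77.5 and 76.3 CPM in LGR5-high, against 71.1 and 90.1 CPM in LGR5-negative. The LGR5-high libraries were alike, and the LGR5-negative libraries lay on both sides of them. Pig 88R alone gave a log2 fold change of 0.12 and pig 95R one of -0.24. Over both pigs it was -0.07 with a 95% interval from -0.38 to 0.24 (adjusted p = 0.689, edgeR), and it was 0.16 with library size only. A 2-fold difference of RBL2, of CDKN2B or of CCND2 lay outside each of these intervals.

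Ratios between related genes within 1 library do not depend on the scaling between libraries. They were computed for 15 pairs, and an exact permutation test of 2 libraries against 2 cannot give a 2-sided p below 0.333. CCND1 over CCND3 was 1.74 and 1.77 in LGR5-high and 3.73 and 3.45 in LGR5-negative, which is 2.14-fold and 1.95-fold lower in the 2 pigs. The balance of the D cyclins therefore moved from CCND1 towards CCND3 in each animal. CDK4 over CDK6 was 1.22 and 1.59 in LGR5-high and 0.714 and 1.00 in LGR5-negative, 1.71-fold and 1.58-fold higher. CDKN1A over CDKN1C was 30.9 and 40.4 in LGR5-high and 260 and 202 in LGR5-negative, 8.43-fold and 4.99-fold lower. By contrast, CCND3 over CDK4 was 1.17 and 1.01 in LGR5-high and 1.06 and 1.06 in LGR5-negative, with ranges that overlapped.

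**Figure D3:**
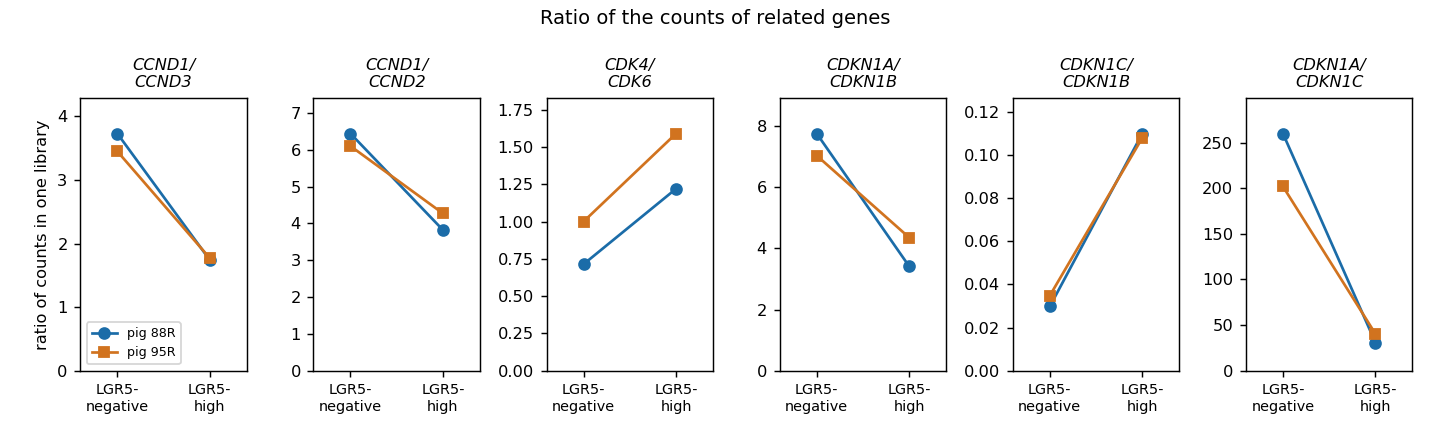
Ratio of the counts of 2 related genes within the same library, on vertical axes that start at 0, for LGR5-negative on the left and LGR5-high on the right of each panel, with 1 point per library and a line per pig. In each of the 6 panels the lines of both pigs run the same way, down for CCND1 over CCND3, from 3.73 and 3.45 to 1.74 and 1.77, and up for CDK4 over CDK6 and for CDKN1C over CDKN1B.

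Among LGR5-negative libraries the 2 pigs differed most in CDK6 (log2 difference of -0.54, pig 95R less pig 88R), which had -0.24 among LGR5-high libraries. There CDKN2B, CDKN1C and CDKN1B differed more, by -0.34, -0.33 and -0.30. CCND3 had -0.05 in LGR5-negative and -0.07 in LGR5-high. CDKN1C and RBL2 were higher in the LGR5-negative library of pig 95R, by log2 differences of 0.23 and 0.34, and lower in its LGR5-high library. The log2 fold changes of the pigs lay farthest apart for CDKN1C (-0.56, pig 95R less pig 88R). With 1 library of each population per pig, a difference between the pigs in the response of a gene could not be tested.

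Genes downstream of the G1 step were read from a list of 26 genes of S phase and mitosis, of which 13 were higher and 1 lower in LGR5-high, beside 22.7% and 22% of all tested genes, with a median log2 fold change of 0.59. There were 20 higher with library size only, 21 with the block as well, and 7 at a log2 fold change of at least 1. The cyclin B2 gene CCNB2 (log2 fold change 1.36, adjusted p = 0.0369, edgeR) and the centromere protein gene CENPF (1.30, adjusted p = 0.038, edgeR) were the highest of those called. TOP2A, a topoisomerase of dividing cells, had 5398 and 3173 counts in LGR5-high and 2138 and 1240 in LGR5-negative (log2 fold change 1.13, adjusted p = 0.0407, edgeR). The calls of TOP2A and CENPF were lost in DESeq2 without the block. With single libraries left out, log2 fold changes lay between 0.72 and 1.62 for TOP2A. They lay between 0.86 and 1.91 for CENPF and between 0.84 and 1.87 for CCNB2. MKI67, the proliferation marker gene, had 6518 and 4456 counts against 2984 and 1556. Its log2 fold change of 1.06 stood just outside the threshold (adjusted p = 0.0504, edgeR), and with the pig as a block it was called higher (adjusted p = 1.61e-07, edgeR with the replicate block). RRM2, a subunit of ribonucleotide reductase, was the gene called lower, at -1.30 (adjusted p = 0.000749, edgeR), and MCM7, of the replicative helicase, had the smallest increase called, at 0.36. PCNA, the sliding clamp of replication, had -0.25 (adjusted p = 0.0893, edgeR) and was called lower with the block (adjusted p = 0.0244, edgeR with the replicate block) but under none of the other alternatives, and with library size only its log2 fold change was -0.03. The count of 13 depended on single libraries, with 1 higher gene without the LGR5-high library of pig 88R, 8 without that of pig 95R and 6 without the LGR5-negative library of pig 95R. Of 7 inner root sheath and hair shaft markers tested, 4 were higher and 2 lower. Their summed level was 940 to 1260 CPM in LGR5-high, against 377 to 458 CPM in LGR5-negative. The 4 higher were inner root sheath genes, and the 2 lower were the hair shaft keratin genes KRT31 and KRT35 (log2 fold changes of -1.04 and -2.40). The part of these markers in the levels of the S phase and mitosis genes was not tested.

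Among 13 genes of the other CDK inhibitors and the cyclin E and A kinases, 2 were higher and 4 lower, with a median of 0.18. The 46.2% called was near the 44.7% of all tested genes. CCNA1 and CCNA2, the A cyclins, had log2 fold changes of 1.10 and 1.06 (adjusted p = 0.0111 and 0.0184, edgeR). CDC25B, a phosphatase that activates CDKs, had -0.91, and CDKN2D, the INK4 inhibitor p19, had -0.62 (adjusted p = 0.00144 and 0.00689, edgeR). CDK2 was lower at -0.37 (adjusted p = 0.0187, edgeR), a call lost with library size only (-0.14) and without any single library. Its cyclin partners CCNE1 and CCNE2 had 0.22 and 0.18 and did not pass the test (adjusted p = 0.372 and 0.465, edgeR). A cyclins thus stood higher while the E cyclins gave no call. There were 0 higher genes without the LGR5-high library of pig 88R, 1 higher and 1 lower without that of pig 95R, and 2 lower without the LGR5-negative library of pig 88R. The split was 4 higher and 2 lower with library size only, and 4 and 4 with the block.

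The list of 19 genes of the RB family, E2F factors and the DREAM complex had 2 higher and 2 lower. The other 15 did not pass, and the median was 0.05. The 21.1% called was below the 44.7% of all tested genes. E2F3, an activating E2F, had a log2 fold change of 0.93, and MYBL2, a factor of the MYB family, had 0.90 (adjusted p = 0.0109 and 0.00571, edgeR). E2F2 and the DREAM subunit gene LIN37 had -0.51 and -0.50 (adjusted p = 0.0407 and 0.0469, edgeR), and both calls were lost with library size only. The relatives of RBL2 had log2 fold changes of -0.15 for RB1 (adjusted p = 0.253, edgeR) and -0.36 for RBL1 (adjusted p = 0.052, edgeR), and E2F4, a repressor E2F that pairs with RBL2, had -0.24 (adjusted p = 0.0901, edgeR). With the block, RBL1 was called lower (adjusted p = 0.00941, edgeR with the replicate block), a call lost in DESeq2 with the block and with library size only, where its log2 fold change without the block was -0.13. RBL2 over RBL1, as a ratio of counts, was 1.67 and 1.96 in LGR5-high and 1.33 and 1.61 in LGR5-negative, 1.25-fold and 1.22-fold higher in the 2 pigs. The list had 5 higher and 5 lower genes with the block, and 7 higher and 0 lower with library size only. Leaving out libraries gave 1 higher and 1 lower gene without the LGR5-high library of pig 88R, 4 and 0 without its LGR5-negative library, and 2 and 0 without the LGR5-high library of pig 95R.

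Genes that make, assemble or destroy these proteins formed a list of 17, with 2 higher, 4 lower and a median of -0.05. Of the list, 35.3% was called, beside 44.7% of all tested genes. SKP2 and FBXW7, which mark CDKN1B and cyclin E, respectively, for degradation, were both higher at 0.65 (adjusted p = 0.0183 and 0.00168, edgeR). CKS2, a small CDK-binding protein gene, was lower at -0.80, and USP2, a deubiquitinase that stabilises CCND1, at -0.81 (adjusted p = 0.00122 and 0.00784, edgeR). With library size only, 5 were higher and 3 lower. The call of SKP2 was lost without the LGR5-high library of pig 88R or the LGR5-negative one of pig 95R, either of which left 1 higher gene, and that of USP2 without the LGR5-high library of pig 95R, which left 2 lower.

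Of 25 upstream regulators of CDK inhibitors and D cyclins, 6 were higher and 6 lower, with a median of 0.05. The 48% called was near the 44.7% of all tested genes. TCF7L1 and TCF7L2, TCF factors of the WNT pathway, had log2 fold changes of 2.80 and 2.73 (adjusted p = 8.37e-05 and 0.000243, edgeR). KLF4, a factor of differentiating epidermis known to activate CDKN1A, had 801 CPM in LGR5-high, against 2360 CPM in LGR5-negative on average, with a log2 fold change of -1.56 (adjusted p = 0.000154, edgeR). The TGF-beta receptor gene TGFBR2 had -0.95 (adjusted p = 0.0401, edgeR), a call lost with library size only (-0.72), without the LGR5-negative library of pig 88R and without the LGR5-high library of pig 95R. CDKN1A and KLF4 were both lower in both pigs, and CCND1 was lower where the TCF factors were higher. Any link between these genes was not tested. With library size only 12 were higher and 3 lower. The lower calls were 3 without the LGR5-negative library of pig 88R.

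The list of 19 p53 target and growth arrest genes, which did not hold CDKN1A, had 3 higher and 11 lower genes and a median of -0.42. The 73.7% called stood beside 44.7% of all tested genes. SESN2, a stress-induced sestrin, and PLK2, a polo-like kinase gene, had log2 fold changes of -1.54 and -1.52 (adjusted p = 0.000226 and 0.000892, edgeR). SESN1, another sestrin, had 1.41, and GAS1, a growth arrest gene of the cell surface, had 0.61 (adjusted p = 0.00809 and 0.0342, edgeR). The call of GAS1 was lost without either LGR5-high library or the LGR5-negative library of pig 95R. Without the LGR5-high library of pig 95R the counts were 1 higher and 7 lower. They were 5 higher and 7 lower with library size only, so the lower share of the calls moved with the scaling.

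**Figure D4:**
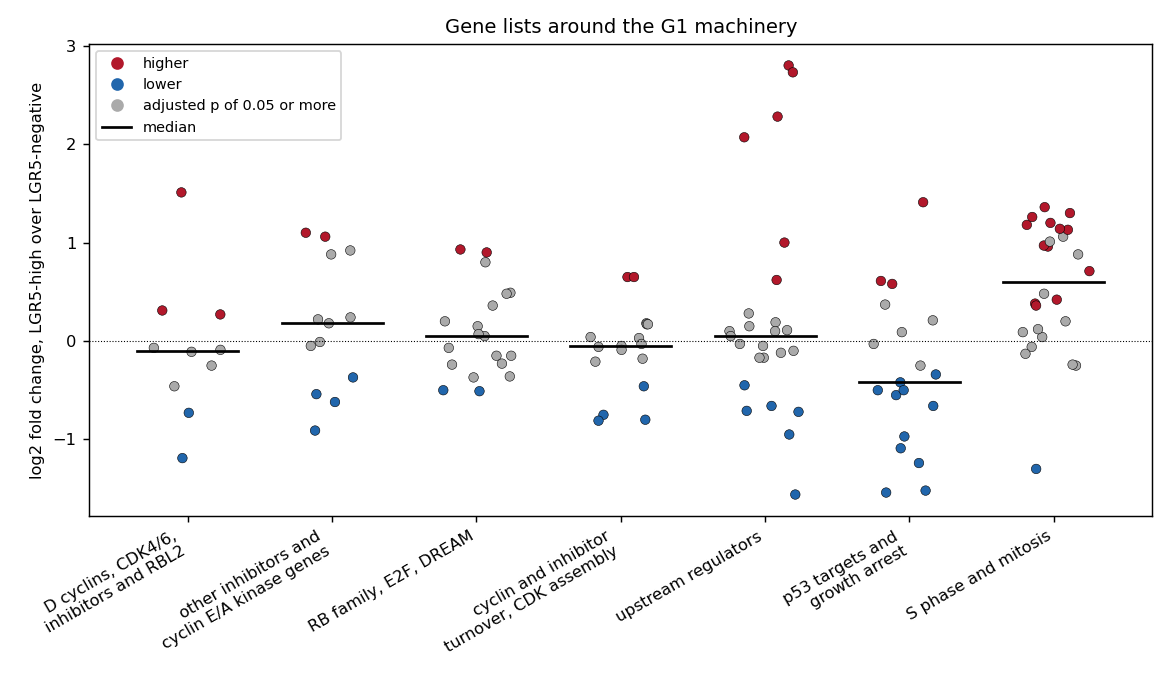
The log2 fold change of each tested gene, LGR5-high over LGR5-negative, on the vertical axis, for the 10 genes of the set and the 6 wider lists. Each point is a gene, red where called higher, blue where called lower and grey where the adjusted p was 0.05 or more, and black bars are medians. The medians lie between -0.10 and 0.18 in 5 columns, at -0.42 for p53 targets and growth arrest, and at 0.59 for S phase and mitosis.

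Markers of other cells that the gates could hold were read as well. Of 6 Langerhans cell and leukocyte markers tested, 5 were lower in LGR5-high and 1 higher, and their summed level was 14.5 CPM in both LGR5-high libraries and 91.3 to 134 CPM in LGR5-negative. Melanocyte markers summed to 61.9 CPM in both LGR5-high libraries, and to 82.7 (pig 88R) and 256 CPM (pig 95R) in LGR5-negative, with 4 of 6 lower. Fibroblast markers summed to 758 and 939 CPM in LGR5-high, against 621 and 349 CPM in LGR5-negative, with 3 higher and 4 lower of 8. THY1 alone had 504 and 466 CPM in LGR5-high, against 267 and 117 CPM in LGR5-negative. The 3 higher were THY1, COL1A1 and FBLN1, and the 4 lower were DCN, LUM, COL3A1 and PDGFRA. PDGFRA had at most 4 counts in LGR5-high. The 5 basal keratinocyte markers had 3 lower and 0 higher, the 4 sebaceous markers 2 higher and 0 lower, and the 8 hair follicle stem cell markers 6 higher and 0 lower, of which LGR5 was the gene of the sort. The part of these markers in the levels of the D cyclins, kinases and inhibitors was not tested.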

How the data were processed

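RNA of sorted LGR5-high and LGR5-negative epidermal cells from 2 pigs was sequenced by the study in paired-end mode after poly(A) selection. Per the file headers, 1 column of raw counts was deposited by the authors for each library, without normalization and with gene symbols as names. The submitters' processing notes name Trimmomatic 0.36, STAR 2.5.2b, featureCounts and Subread 1.5.2. The genome build, annotation and strand setting are not given in the sources used here. An entry without a name, with 0.36% to 0.626% of the counts of a library, was left out. All 29837 symbols matched RefSeq symbols of Sscrofa11.1, used for names only.

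The analysis used edgeR 4.0.16 in R 4.3.3, with filterByExpr (minimum count 10, minimum total 15), TMM, and a 2-sided quasi-likelihood test on a single population term with Benjamini-Hochberg adjustment over 15980 genes, with calls at an adjusted p-value under 0.05. CPM values are TMM-scaled. Log2 fold changes per pig used a prior count of 2, those of the test 0.125. Intervals at 95% are from the same fit. The floor of 3 counts does not include PCR error. The p-values of this test rest on the spread over 2 animals within each population, which edgeR moderates with the spread of the other tested genes.

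Both populations came from the same animals, so the pig was also fitted as a replicate block. Same-pig libraries deviated together from the population means, with a correlation of 0.422 over log2(CPM + 1). The gene set, the lists and the ratios were chosen with earlier results of these data known. Text names all 10 genes, and from each list the called genes with the 2 highest and 2 lowest log2 fold changes, plus hub genes of the cycle. Alternatives were other scalings and filters, the block, DESeq2 1.42.0, voom of limma 3.58.1, the t-test that the study's methods name, Bonferroni adjustment, a minimum log2 change of 1, and leaving out each library. The block with library size only was added after the values were seen. From the marker lists, 1 gene is not reported here. The test was checked on simulated data with few changed genes and no pig effect. That check does not cover the share of genes called here or the pairing by pig. Plots used matplotlib 3.10.9. No sequence, coordinate or length was used, so levels are not compared between genes.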

Additional observations from a re-analysis of the deposited data

How the results depend on the processing

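With 2 libraries per population, small differences could not be called firmly. CDKN1A and CDKN1C were called under 11 of 13 alternatives, CCND1 under 10, CCND3 under 9, CDK4 under 6, CDK6 under 2 and CDKN1B under 1, and CCND2, CDKN2B and RBL2 under 0. The pig as a replicate block gave 4 lower genes of the set in place of 2, and DESeq2 with the block 1 higher in place of 3. Student's t-test and Bonferroni adjustment called 0 higher and 0 lower genes of the set, and a log2 fold change of at least 1 left 1 and 1. The adjusted p-values of the 5 called genes were between 0.0503 and 0.142 in the t-test. Leaving out each library gave 1 higher gene in each case and 2 to 3 lower ones. Over all genes, 5473 were higher and 2326 lower with library size only, 544 and 502 with the t-test, 194 and 130 with Bonferroni adjustment, and 2339 and 1505 with a log2 fold change of at least 1. Library size only with the replicate block, added after the values were seen, gave 6410 higher genes. Leaving out each library gave 2279 to 3169 higher and 2139 to 3004 lower genes. The direction reversed for genes near 0: CCND2 was 0.01 with upper quartile scaling, 0.14 with library size only, 0.13 with the block as well, and -0.21 to 0.02 when libraries were left out (0.02 without the LGR5-high library of pig 95R). RBL2 was 0.03, 0.16 and 0.17 under the same scalings and -0.24 to 0.10 with libraries left out (0.10 without the LGR5-negative library of pig 95R). CDKN2B was 0.12 with library size only, 0.11 with the block as well, and -0.30 to 0.06 with libraries left out (0.06 without the LGR5-high library of pig 95R). The median of all genes was 0.11 with upper quartile scaling and 0.24 with library size only, against 0.02, which shifts every gene alike. The cause of the other changes was not tested.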
